A study of Homo sapiens with 12 samples.

Results

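The response of MCF10A cells to XMU-MP1 was measured by RNA sequencing while YAP and TAZ were present. MCF10A is an immortalised, non-tumour human mammary epithelial cell line, here labelled wild type, grown with horse serum, insulin, hydrocortisone and epidermal growth factor. XMU-MP1 is a small-molecule inhibitor of the kinases MST1 and MST2. All 6 libraries described here came from cells transfected with a negative-control siRNA at 22 nM. After 48 h the medium was replaced by medium with DMSO, the solvent control (3 libraries, called DMSO a, b and c), or with 5 µM XMU-MP1 (3 libraries, called XMU-MP1 a, b and c), and the cells were harvested 6 h later. The other 6 of the 12 libraries of the study were transfected with siRNA sets that target YAP and TAZ, at 11 nM, and given the same treatments, and they enter only where stated. The comparison of XMU-MP1 with DMSO took in all 46931 genes of the table, of which 16081 passed a filter on low counts and were tested. The design has 1 cell line, 1 inhibitor at 1 dose and 1 time point. No second inhibitor and no inhibitor-resistant kinase is among the samples, so an effect through MST1 and MST2 and an effect of XMU-MP1 through other proteins cannot be told apart.

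In the Hippo pathway, MST1 (gene STK4) and MST2 (gene STK3), with the adaptor SAV1, activate the kinases LATS1 and LATS2. LATS kinases phosphorylate YAP, encoded by YAP1, and TAZ, encoded by WWTR1, coactivators of transcription, which keeps them out of the nucleus, and unphosphorylated YAP and TAZ bind TEAD factors on DNA and switch on genes such as CCN1 and CCN2. In basal mammary epithelium YAP and TAZ act beside p63, the product of TP63 and a master factor of basal identity. The title of the series speaks of a Hippo pathway outside the canonical route as a repressor of deltaNp63, a form in which TP63 is transcribed. The table gives 1 value per gene, so the transcript forms of TP63 are not told apart.

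Levels below are CPM, read counts scaled to library size with edgeR's TMM factors, per library or as mean ± SD of 3 libraries. Changes are log2 fold changes of XMU-MP1 against DMSO with their standard error (SE), and a gene is called higher or lower where the Benjamini-Hochberg adjusted p of edgeR's quasi-likelihood test over the 16081 tested genes lies under 0.05. Total counts ranged from 46901372 to 67953633 per library and genes with a count from 18482 to 19539. Ribosomal RNA took 1.02 to 2.52% of the counts. RNA came from whole cultures, in which fewer cells of a kind and less RNA per cell cannot be told apart. Nothing in the labels says whether the letters stand for separate cultures, so p-values reflect only how much these libraries varied, which may be technical.

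Within 6 h, higher levels with XMU-MP1 were called for 1943 genes (12.1% of those tested) and lower levels for 2101 genes (13.1%), in all 25.1%. Every count of called list members below is to be read beside these shares. A change of at least 2-fold was reached by 715 of the higher genes (4.45% of tested genes) and 1095 of the lower genes (6.81%). The XMU-MP1 libraries lay wholly above or wholly below the DMSO libraries for 44.8% of the tested genes, and for 1942 of the higher and 2099 of the lower genes. A lack of overlap in a called gene below therefore adds almost nothing to its call. The median log2 fold change of all tested genes was -0.009 after TMM scaling. When libraries were scaled by their totals alone the median was -0.113, and 1411 higher and 2528 lower genes were called. On the deposited FPKM values (fragments scaled to transcript length and depth) limma called 1499 higher and 2719 lower genes at a pseudocount of 1, so the balance of rises and falls depends on the scaling. Counts were smaller, 725 higher and 955 lower, in a fit of all 12 libraries. With 1 library left out, 1081 to 1723 genes were higher, the fewest without XMU-MP1 library b and 1130 without DMSO library b, and 1220 to 1837 were lower, with 1220 without DMSO b, 1284 without XMU-MP1 b, 1326 without DMSO c and 1382 without DMSO a. Long non-coding RNAs had a median log2 fold change of -0.35, with 66 of 1519 called higher and 145 called lower, while the 12581 protein-coding genes had a median of -0.01. The scatter of fold change against abundance shows the named genes among all others.

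**Figure D1:**
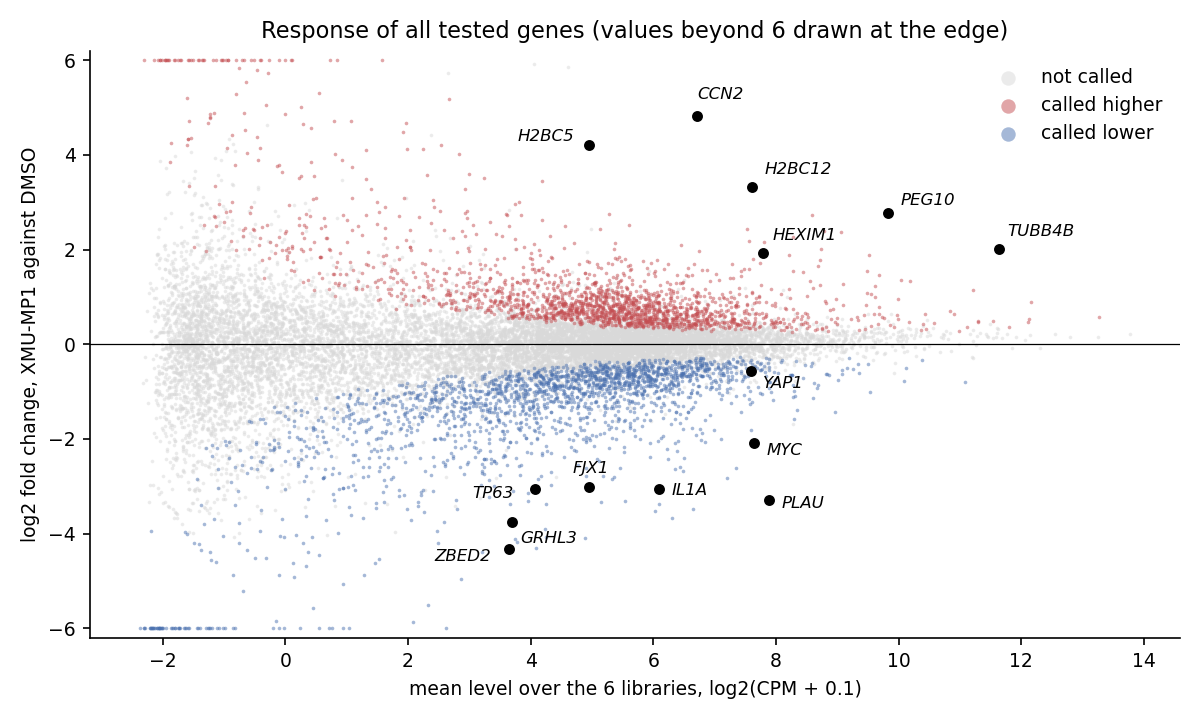
Log2 fold change of XMU-MP1 against DMSO (vertical axis) against the mean level over the 6 control-siRNA libraries as log2(CPM + 0.1) (horizontal axis), 1 point per tested gene, red where called higher, blue where called lower. CCN2 at 4.82 and H2BC5 at 4.21 stand at the top, PLAU at -3.29 is among the most abundant genes that fell, and YAP1 at -0.57 lies near the edge of the uncalled cloud.

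The messenger RNAs of the inhibited kinases themselves were not called. STK3 stood at 28.7, 29.3 and 24 CPM in DMSO and 25.9, 29.8 and 33.8 CPM in XMU-MP1, and the groups overlapped (0.13, SE 0.15, adjusted p = 0.592 by edgeR). STK4 stood at 54.6, 86.4 and 81.3 CPM against 115, 79.0 and 139 CPM, again with overlap (0.58, SE 0.25, adjusted p = 0.13 by edgeR). An inhibitor of kinase activity need not alter these transcripts, so they are no check of the treatment. LATS2, the LATS kinase gene that is itself a widely used YAP target, stood at 24.1, 23.8 and 24.6 CPM in DMSO and 33.3, 53.6 and 51.4 CPM in XMU-MP1. All XMU-MP1 libraries were above all DMSO libraries, and LATS2 rose by 0.93 (SE 0.19, adjusted p = 0.013 by edgeR). The call was lost without DMSO library b. LATS1 had a mean of 30.1 CPM in DMSO and 42.6 CPM in XMU-MP1 (0.50, SE 0.15, adjusted p = 0.0479 by edgeR), a call lost under 12 of 17 other settings, among them each of 5 fits that leave out DMSO b, DMSO c or an XMU-MP1 library.

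Of 28 tested Hippo kinases, adaptors and upstream regulators, 7 rose, 1 fell and 20 were not called, with a median of 0.27. These are 25% higher and 3.57% lower, against 12.1% and 13.1% of all tested genes. RASSF1, a scaffold that binds the MST kinases, rose from 18.7 ± 4.29 to 37.8 ± 1.24 CPM (1.02). TAOK2, a kinase that can act upstream of MST, rose by 0.93, a call lost without DMSO library a. WWC1, the KIBRA scaffold that promotes LATS activity, fell from 133 ± 12.6 to 61.6 ± 14.2 CPM (-1.11, SE 0.18, adjusted p = 0.00575 by edgeR). With 1 library left out, 2 to 4 members were called higher, with 2 without DMSO library b. RASSF1 and TAOK2 were not called in the 12-library fit, where 1 member rose.

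YAP1 and WWTR1 transcripts moved in opposite directions. YAP1 stood at 227, 248 and 216 CPM in DMSO and at 148, 154 and 162 CPM in XMU-MP1. Every XMU-MP1 library was below every DMSO library, and the log2 fold change was -0.57 (SE 0.09, adjusted p = 0.00623 by edgeR). WWTR1 stood at 39.1, 26.7 and 42.7 CPM in DMSO and at 63.8, 69.0 and 64.2 CPM in XMU-MP1. Here all XMU-MP1 libraries were the higher ones (0.86, SE 0.18, adjusted p = 0.0142 by edgeR). For both genes the exact permutation test (two-sided, all arrangements of the 6 libraries) gave p = 0.1, the smallest it allows. The YAP1 call was lost in the 12- and 11-library fits, and the WWTR1 call in the 12-library fit and without XMU-MP1 library b. Of 9 coactivators, TEAD factors and VGLL competitors, 1 rose and 5 fell, but 3 fell when DMSO b, DMSO c or any XMU-MP1 library was left out, and 1 in the 12-library fit. TEAD3, a DNA-binding partner, fell from 53.7 ± 5.57 to 33.3 ± 2.18 CPM (-0.69), and VGLL3, a TEAD-binding cofactor, fell from 25.2 ± 5.25 to 9.45 ± 1.63 CPM (-1.41), the latter not called in the 12-library fit. TEAD1 was not called (0.33, adjusted p = 0.172 by edgeR).

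CCN2, which encodes a matricellular growth factor and is the most used YAP and TAZ readout, showed the largest rise among well-expressed genes. Its levels were 4.96, 7.14 and 9.42 CPM in DMSO and 57.7, 251 and 300 CPM in XMU-MP1. The lowest XMU-MP1 library, a, was still above every DMSO library, while the XMU-MP1 libraries differed among themselves by several-fold. CCN2 rose 28.2-fold (4.82, SE 0.64, adjusted p = 0.00323 by edgeR), and the exact permutation test gave p = 0.1, the smallest possible. CCN1, a sister gene, stood at 69.6, 68.1 and 84.2 CPM in DMSO and 140, 262 and 317 CPM in XMU-MP1. It rose 3.24-fold without overlap (1.69, SE 0.28, adjusted p = 0.00667 by edgeR), with library a again the lowest of the treated libraries, and its call was lost in the 12- and 11-library fits.

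The 250 bases before the CCN2 start are shown because they hold the TEAD motif GGAATG at 3 places. The letters come from the RefSeq promoter table on GRCh38.p14, chr6:131951373-131951622, minus strand, and capitals mark GGAATG. CCN2 itself lies on chromosome 6 from 131948176 to 131951372 in the table's GRCh38.p13 coordinates.
CCN2: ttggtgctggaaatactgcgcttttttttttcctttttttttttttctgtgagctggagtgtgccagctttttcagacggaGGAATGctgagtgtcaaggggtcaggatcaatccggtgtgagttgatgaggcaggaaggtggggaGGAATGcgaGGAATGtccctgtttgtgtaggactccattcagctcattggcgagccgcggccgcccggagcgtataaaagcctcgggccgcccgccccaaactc
The motif begins 169, 104 and 95 bases before the start. GGAATG on either strand was present in 11.9% of 27305 promoter windows of that length, in 9.50% of the windows of tested genes, in 8.84% of those of called higher genes and in 9.81% of those of called lower genes. A match describes the letters and does not show a bound site.

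The wider list of YAP and TAZ target genes moved in both directions, as did all tested genes. Of 26 tested genes, 5 rose, 6 fell and 15 were not called, and the median was -0.28. These are 19.2% higher and 23.1% lower, against 12.1% and 13.1% of all tested genes. FJX1, a secreted regulator of planar polarity signalling, stood at 59.1, 51.6 and 54.2 CPM in DMSO and 5.51, 4.86 and 9.92 CPM in XMU-MP1. Every treated library was lower, and FJX1 fell 8.11-fold (-3.02, SE 0.28, adjusted p = 0.00126 by edgeR). F3, the gene of tissue factor, fell from 176 ± 34.5 to 43.3 ± 15.4 CPM (-2.02, SE 0.27, adjusted p = 0.00319 by edgeR). TGFB2, a TGF-beta ligand, fell by 2.53 on the log2 scale and THBS1, the matrix protein thrombospondin-1, fell by 1.38, and both calls were lost in the 12- and 11-library fits. The receptor kinase gene AXL (-0.27) and AMOTL2 (0.26), which encodes a YAP-binding scaffold, were not called. ANKRD1, another frequent readout, was at or below 0.382 CPM in all 6 libraries. Without DMSO library b 3 members rose, and in the 12-library fit 2 rose and 2 fell.

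**Figure D2:**
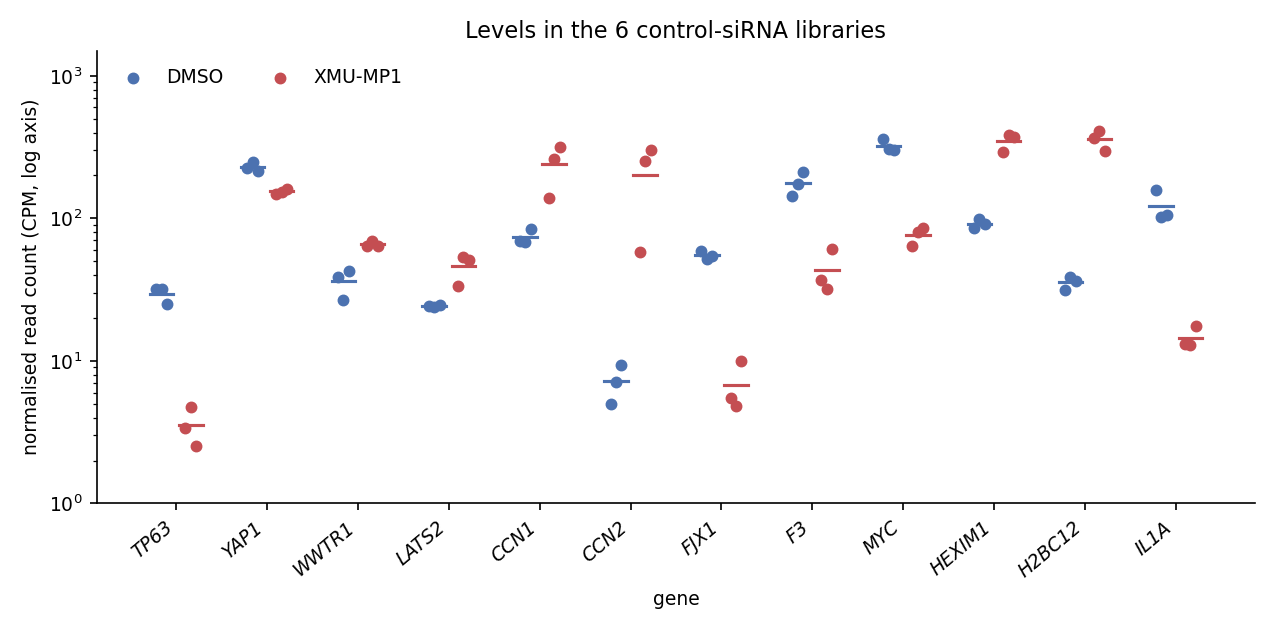
Normalised read count (CPM, log axis) of 12 genes in each of the 6 control-siRNA libraries, 1 point per library with DMSO in blue and XMU-MP1 in red, and lines at the group means. All 12 genes were called, and the groups do not overlap for any of them. The same held for 1942 of the 1943 called higher and 2099 of the 2101 called lower genes, so this separation is no result. TP63 fell from about 30 to under 5 CPM, whereas CCN2 rose from under 10 to between 57.7 and 300 CPM.

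TP63 fell strongly. Its levels were 32.0, 32.0 and 25.0 CPM in DMSO and 3.39, 4.76 and 2.54 CPM in XMU-MP1. The highest treated library was far below the lowest DMSO library, and TP63 fell 8.32-fold (-3.06, SE 0.27, adjusted p = 0.00114 by edgeR; exact permutation p = 0.1, the smallest possible). TP63 spans chromosome 3 from 189596746 to 189897279 on the plus strand (GRCh38.p13). Of 32 tested genes in the list of TP63 and its widely used targets, 11 fell, TP63 included, 1 rose and 20 were not called, with a median of -0.30. FAT2, a giant protocadherin of basal epithelium, stood at 108, 97.4 and 107 CPM in DMSO and 21.5, 19.6 and 18.3 CPM in XMU-MP1. The groups were far apart (-2.39, SE 0.11, adjusted p = 0.00034 by edgeR). LAMB3, a chain of the basement-membrane protein laminin-332, fell from 533 ± 84.2 to 243 ± 38.6 CPM (-1.13). SFN, the epithelial adaptor 14-3-3 sigma, fell from 991 ± 45.6 to 492 ± 49.8 CPM (-1.01), and EVPL, the cornified-envelope protein envoplakin, fell by 1.07. The basal keratin genes were not called. KRT5 stood at 4780 to 5650 CPM in DMSO and 4110 to 5620 CPM in XMU-MP1 (-0.07, adjusted p = 0.76 by edgeR), and KRT14 had a log2 fold change of 0.20 (adjusted p = 0.786 by edgeR). In the 12-library fit 6 members fell and none rose.

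Many histone genes rose. Histones H2A, H2B, H3 and H4 form the nucleosome core and H1 binds the linker, and the replication-dependent histone genes lie in clusters on chromosomes 6 and 1. Of 27 tested histone genes 15 rose, 0 fell and 12 were not called by edgeR, and 12 to 18 rose under the other settings, the lowest without DMSO library b. The median was 1.79, against -0.009 for all tested genes. H2BC12, the most abundant of the genes called here, stood at 31.4, 38.5 and 36.6 CPM in DMSO and 365, 413 and 295 CPM in XMU-MP1. That is a 10.1-fold rise with no overlap (3.33, SE 0.16, adjusted p = 0.00034 by edgeR). H2BC5 stood at 2.51, 4.35 and 2.57 CPM in DMSO and 49.1, 81.8 and 44.0 CPM in XMU-MP1 (4.21, SE 0.35, adjusted p = 0.000943 by edgeR). H2BC4 rose from 3.71 ± 0.404 to 24.7 ± 2.14 CPM (2.73) and H2AC6, an H2A gene, from 2.87 ± 0.342 to 17.1 ± 3.77 CPM (2.58). H4C15, an H4 gene, rose by 3.44, and H3C4, an H3 gene outside the list, rose by 3.59. H3C3 (-0.45) was the 1 tested gene of the list with a negative log2 fold change, and it was not called. The rise reached H3-3B, which encodes the replacement histone H3.3 (440, 471 and 483 CPM in DMSO, 1090, 1150 and 1050 CPM in XMU-MP1, 1.24).

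Most replication-dependent histone messages end in a stem-loop without a poly(A) tail, and the libraries were selected for poly(A). More histone RNA and a larger polyadenylated part of it therefore cannot be told apart. Histone genes are near-identical within a class, and how reads shared by copies were counted is not given in the sources used here, so the split between members such as H2BC5 and H2BC12, or H4C15 and H4C14, is uncertain.

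The H2BC12 promoter is shown because it belongs to the most abundant histone gene that rose and holds the octamer ATTTGCAT, the element of H2B promoters that OCT1 binds. The window is chr6:27146859-27147108 on the minus strand (RefSeq, GRCh38.p14), with the octamer in capitals.
H2BC12: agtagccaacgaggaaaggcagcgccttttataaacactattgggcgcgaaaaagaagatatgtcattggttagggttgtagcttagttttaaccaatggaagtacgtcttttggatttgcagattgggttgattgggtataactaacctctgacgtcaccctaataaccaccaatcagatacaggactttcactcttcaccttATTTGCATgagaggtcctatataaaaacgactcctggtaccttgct
The octamer begins 46 bases before the start. It was present in the promoters of 12 of 15 tested H2B genes with a window, and in 7 of the 8 whose genes were called higher. Over all genes it was in 1.66% of all promoter windows and 1.45% of those of tested genes. The shares were 1.82% for called higher and 1.34% for called lower genes. This motif was chosen after the values were seen. H2BC5, the H2B gene with the largest rise, had no octamer in its window.

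Genes of transcription elongation rose beside the histones. P-TEFb, the pair of CDK9 and a cyclin T, releases paused RNA polymerase II, HEXIM1 holds P-TEFb inactive in a complex with 7SK RNA, and BET proteins recruit it to chromatin. Of 21 tested genes of this list 11 rose, 0 fell and 10 were not called by edgeR, and the median was 0.43. HEXIM1 stood at 85.0, 98.4 and 91.2 CPM in DMSO and 290, 386 and 371 CPM in XMU-MP1. All treated libraries were about 3 to 4 times the DMSO level (1.93, SE 0.13, adjusted p = 0.000664 by edgeR). CCNT1, a cyclin T gene, rose from 35.7 ± 1.01 to 66.2 ± 1.21 CPM (0.89) and CDK9 from 46.7 ± 2.96 to 81.5 ± 3.95 CPM (0.80). ELL2, a subunit of the super elongation complex, rose by 0.83. BRD2, a BET gene chosen here after its values were seen, stood at 6.11, 6.13 and 14.1 CPM in DMSO and 30.0, 37.3 and 27.1 CPM in XMU-MP1 (1.84). The genes of the NELF subunits that could be tested were not called (NELFA -0.15, NELFB -0.16). With 1 library left out, 6 to 9 members rose, 6 without DMSO library b or c and 7 without XMU-MP1 library b. In the 12-library fit 4 rose, and ELL2 and BRD2 were not among the called genes.

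A list of genes widely used as readouts of BET bromodomain inhibition, chosen with earlier results of these data known, had 7 of 14 tested members higher and 4 lower. These shares are 50% and 28.6%, against 12.1% and 13.1% of all tested genes. The 7 were HEXIM1, SERPINI1, ZCCHC24, H2BC21, H2BC12, H2BC4 and H1-2, and the 4 were MYC, FOSL1, CCND1 and IL7R. Genes such as HEXIM1, H2BC12, H2BC4, MYC, FOSL1 and CCND1 also enter the counts of other lists here, so this list is no separate evidence. Between 7 and 8 members were higher and 4 were lower under all 17 other settings. SERPINI1, the gene of the inhibitor neuroserpin, stood at 0.934, 2.05 and 1.52 CPM in DMSO and 13.4, 21.1 and 17.2 CPM in XMU-MP1 (3.51, SE 0.35, adjusted p = 0.00143 by edgeR). ZCCHC24, a zinc-finger gene named after its values were seen, rose from 3.78 ± 0.913 to 21.2 ± 2.90 CPM (2.49), and IL7R, the interleukin-7 receptor gene, also named after its values were seen, fell from 17.5 ± 6.66 to 0.834 ± 0.0179 CPM (-4.39). The treated libraries lay on 1 side of the DMSO libraries for these 3 genes. CDK6 (-0.95, adjusted p = 0.648 by edgeR), BCL2 (-0.77) and TXNIP (1.15) were not called. On the common scale of all 12 libraries CDK6 stood at 135, 3.53 and 129 CPM in DMSO and 2.91, 61.8 and 71.6 CPM in XMU-MP1. In each group 1 library was far below the others, so the CDK6 value says little about the treatment.

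**Figure D3:**
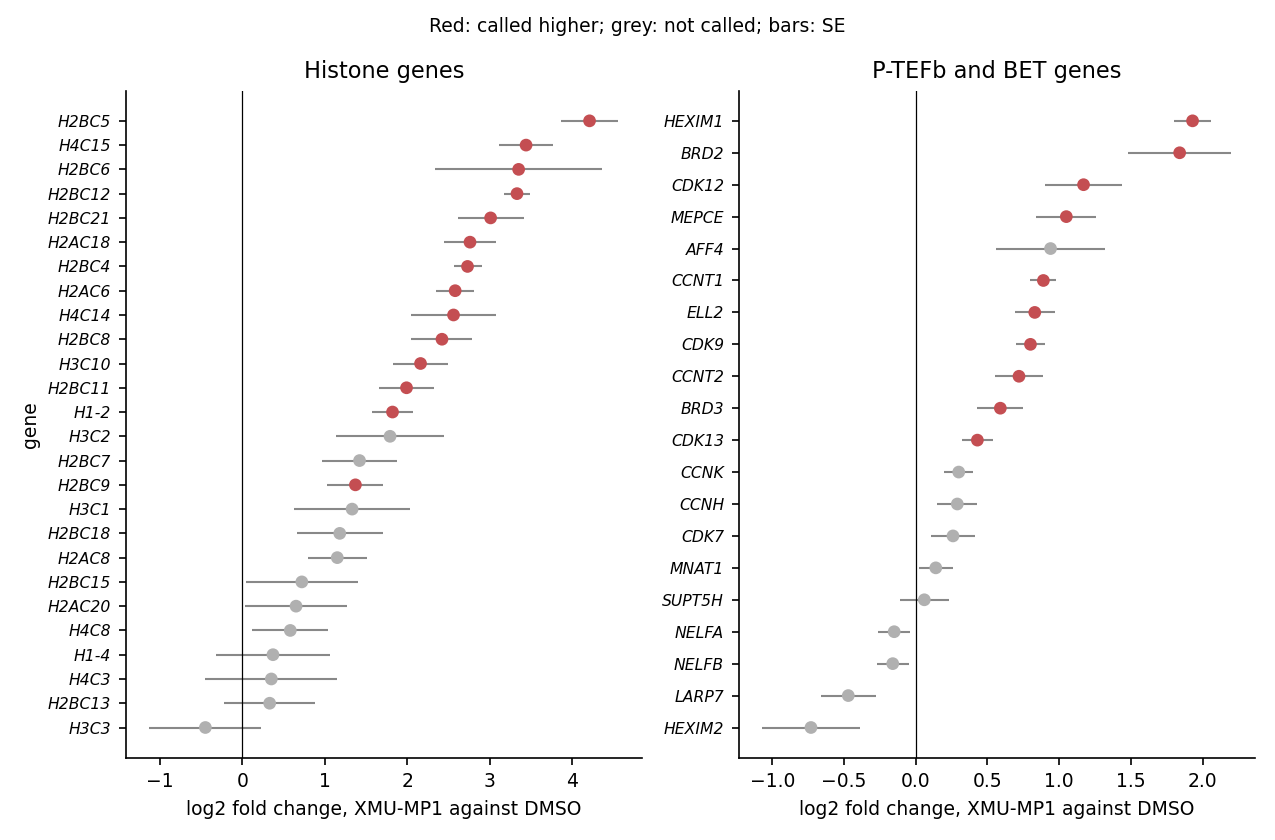
Log2 fold change of XMU-MP1 against DMSO (horizontal axes) for the tested histone genes (left) and the tested genes of P-TEFb, its inhibitors, BET proteins and elongation kinases (right), all but 1 of each list, with bars for the SE and red points for called genes. The histone genes reach from -0.45 (H3C3) to 4.21 (H2BC5), and the elongation genes from -0.73 (HEXIM2) to 1.93 (HEXIM1).

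MYC, the growth-promoting transcription factor gene, stood at 363, 309 and 300 CPM in DMSO and 64.0, 80.7 and 85.7 CPM in XMU-MP1. It fell 4.21-fold with wide separation (-2.08, SE 0.14, adjusted p = 0.000664 by edgeR). Of 11 tested members of the MYC, MAX and MXD network 3 rose and 3 fell, 27.3% each, against 12.1% and 13.1% of all tested genes. Only 1 rose without DMSO library b, without XMU-MP1 library b and in the 12-library fit. MXD1, which encodes a MAX partner that opposes MYC, rose from 14.3 ± 3.40 to 47.4 ± 18.6 CPM (1.73), while MNT, another MAX partner, fell from 27.5 ± 4.39 to 11.0 ± 0.981 CPM (-1.32) and MGA fell by 1.73, the last not called in the 12-library fit. Among nucleolar ribosome assembly factors 16 of 26 tested fell and 1 rose, and the median was -0.66. RRS1, needed for assembly of the large ribosomal subunit, stood at 32.6, 26.3 and 35.4 CPM in DMSO and 11.4, 7.24 and 9.36 CPM in XMU-MP1 (-1.75, SE 0.22, adjusted p = 0.00263 by edgeR). NOP16 fell from 111 ± 17.1 to 42.4 ± 10.8 CPM (-1.38) and DKC1, the pseudouridine synthase dyskerin, from 131 ± 16.9 to 67.0 ± 4.42 CPM (-0.97). NOP56 was the member that rose (0.50). Without DMSO library a or c 9 members fell, and in the 12-library fit 8 fell.

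Cell cycle genes moved in both directions, as did all tested genes (12.1% higher and 13.1% lower). CCND1, the gene of cyclin D1, which drives entry into the cycle, stood at 199, 202 and 259 CPM in DMSO and 61.8, 42.5 and 60.0 CPM in XMU-MP1. It fell 4.02-fold with no overlap (-2.01, SE 0.18, adjusted p = 0.00122 by edgeR). RBL2, the pocket protein p130, fell by 1.03. Of 13 tested genes of D cyclins, their kinases and inhibitors with the pocket proteins 3 rose (23.1%) and 2 fell (15.4%). All 3 that rose encode CDK inhibitors, and the inhibitor genes CDKN2C (0.40) and CDKN2D (1.28) were not called. Without XMU-MP1 library a 5 members rose. CDKN1B, which encodes p27, went from 35.8 ± 3.08 to 59.6 ± 2.73 CPM (0.73), and CDKN1C, which encodes p57, from 0 counts in all DMSO libraries to 1.87, 2.69 and 1.27 CPM, at least 41.5-fold higher against a floor of 3 counts per library. CDKN1A, the p21 gene, named after its values were seen, stood at 310, 362 and 438 CPM in DMSO and 1390, 1170 and 662 CPM in XMU-MP1 (1.54, SE 0.27, adjusted p = 0.00815 by edgeR). The treated libraries were all higher and differed among themselves by about 2-fold, c being the lowest.

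Among 29 tested genes of G1/S and DNA replication 6 rose (20.7%) and 7 fell (24.1%), against 12.1% and 13.1% of all tested genes. The minichromosome maintenance helicase gene MCM3 stood at 285, 260 and 259 CPM in DMSO and 122, 102 and 112 CPM in XMU-MP1 (-1.27, SE 0.10, adjusted p = 0.000906 by edgeR). RRM2, a subunit of ribonucleotide reductase, stood at 423, 435 and 452 CPM in DMSO and 1110, 1190 and 1300 CPM in XMU-MP1 (1.46, SE 0.09, adjusted p = 0.000542 by edgeR). Both genes separated the groups fully, in opposite directions. CDC6, which loads the helicase, rose from 109 ± 10.2 to 230 ± 26 CPM (1.07), CCNE2, the gene of cyclin E2, rose by 1.29, and PCNA, the replication clamp, named after its values were seen, rose by 0.87. Of 30 tested genes of mitosis and G2/M 10 rose and 1 fell, with a median of 0.27. CDK1, the mitotic kinase, rose from 117, 127 and 115 CPM to 268, 216 and 253 CPM (1.03), and TOP2A, which disentangles chromosomes, rose by 0.73. None of these mitotic genes was called in the 12- or 11-library fits, where 0 of the 30 rose, and the calls of RRM2, CDC6 and CCNE2 were lost there too. Without DMSO library a or b 6 of the mitotic genes rose. Without DMSO library a or XMU-MP1 library b 4 of the G1/S genes fell, and in the 12-library fit 1 of the G1/S genes rose and 1 fell.

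Many inflammatory genes fell. Of 24 tested NF-kB feedback genes, cytokines and chemokines 14 fell, 2 rose and 8 were not called, with a median of -1.35. IL1A, the gene of the alarm cytokine interleukin-1 alpha, stood at 157, 103 and 105 CPM in DMSO and 13.1, 13 and 17.6 CPM in XMU-MP1 (-3.06, SE 0.22, adjusted p = 0.000676 by edgeR). IL1B, its sister gene, stood at 22.3, 26.4 and 35.1 CPM in DMSO and 2.68, 3.45 and 3.36 CPM in XMU-MP1 (-3.14, SE 0.23, adjusted p = 0.000711 by edgeR). The neutrophil chemokine gene CXCL1 fell from 123 ± 18.1 to 26.6 ± 5.87 CPM (-2.21) and CXCL2 from 15.7 ± 1.86 to 2.93 ± 0.0913 CPM (-2.42). For all 4 genes the groups were several-fold apart. CSF2, the gene of the cytokine GM-CSF, and BIRC3, an apoptosis inhibitor gene induced by NF-kB, were named after their values were seen. CSF2 stood at 0.484, 3.53 and 5.62 CPM in DMSO and at 0 counts in all XMU-MP1 libraries, at least 53.7-fold lower against the floor of 3 counts per library, although limma voom did not call it. BIRC3 fell from 280 ± 81.6 to 45.8 ± 17.6 CPM (-2.61). Over the other settings 10 to 16 members fell, with 10 without DMSO library b.

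Of 21 tested type I interferon response genes 6 fell and 2 rose. IFIT3, an antiviral effector gene, fell from 35.5 ± 3.71 to 4.53 ± 1.49 CPM (-2.97), IFIT2 fell by 2.52, and IRF1, a transcription factor gene, fell from 90.0, 107 and 105 CPM to 23.9, 42.3 and 47.4 CPM (-1.41). IRF7, which encodes another factor of the same family, moved the other way, from 7.47, 12.3 and 10.2 CPM to 57.4, 84.6 and 59.8 CPM (2.75, SE 0.24, adjusted p = 0.00113 by edgeR). Without DMSO library b or c 3 members fell.

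Immediate early genes and AP-1 subunits had 6 of 24 tested members higher and 2 lower, with a median of 0.67. ZFP36, which encodes the messenger-destabilising protein tristetraprolin, stood at 53.3, 48.7 and 47.1 CPM in DMSO and 140, 143 and 127 CPM in XMU-MP1 (1.46, SE 0.10, adjusted p = 0.000664 by edgeR). FOSL1, the AP-1 subunit FRA1, fell from 186 ± 58.4 to 44.4 ± 11.9 CPM (-2.06). FOS (0.30) and JUN (0.27) were not called. Of 20 tested ERK response and feedback genes 2 rose and 5 fell: DUSP1, a phosphatase of MAP kinases, rose from 59.3 ± 9.83 to 176 ± 18.8 CPM (1.57), ETV5, an ETS factor gene, rose by 1.32, and MYEOV fell by 2.27. EGFR, the receptor of the growth factor in the medium, stood at 222, 208 and 218 CPM in DMSO and 66.8, 102 and 103 CPM in XMU-MP1, below DMSO in every library (-1.25, SE 0.17, adjusted p = 0.00346 by edgeR). Without DMSO library c 8 of the ERK genes fell. Without DMSO library a or XMU-MP1 library b 3 immediate early genes rose, and in the 12-library fit 2 rose.

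Stress genes rose in part. Of 30 tested genes of amino acid stress and the unfolded protein response 7 rose, 1 fell and 22 were not called, with a median of 0.32. ASNS, asparagine synthetase and a target of the stress factor ATF4, stood at 175, 86.3 and 42.2 CPM in DMSO and 802, 701 and 515 CPM in XMU-MP1. The treated libraries were all higher, and the DMSO libraries differed among themselves about 4-fold (2.73, SE 0.49, adjusted p = 0.00843 by edgeR). HSPA5, the chaperone BiP of the endoplasmic reticulum, stood at 691, 704 and 665 CPM in DMSO and 1270, 1430 and 1320 CPM in XMU-MP1 (0.96, SE 0.09, adjusted p = 0.00122 by edgeR). DNAJB9, a co-chaperone of BiP, rose by 1.19. ATF4 stood at 941, 655 and 380 CPM against 1960, 1720 and 1300 CPM (1.33, SE 0.32, adjusted p = 0.0231 by edgeR), a call lost without DMSO b, XMU-MP1 a or XMU-MP1 b. DDIT3, the stress factor CHOP, was not called (0.40, adjusted p = 0.688 by edgeR), nor was TRIB3 (-1.39). Without DMSO library b 4 members rose. With the letters a, b and c as a replicate block in the fit, 14 rose and 4 fell. Levels of ASNS and ATF4 decreased from library a to b to c in both groups, a spread that the main fit leaves in its error.

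The promoters of HSPA5 and ASNS are shown because they carry elements known for these stress responses: the ER stress element, which is CCAAT and CCACG with 9 bases between them, and TGATGNAA, bound by ATF4 with C/EBP factors. Windows are from RefSeq on GRCh38.p14, both on the minus strand, chr9:125241344-125241593 for HSPA5 and chr7:97872409-97872658 for ASNS, with each element in capitals.
HSPA5: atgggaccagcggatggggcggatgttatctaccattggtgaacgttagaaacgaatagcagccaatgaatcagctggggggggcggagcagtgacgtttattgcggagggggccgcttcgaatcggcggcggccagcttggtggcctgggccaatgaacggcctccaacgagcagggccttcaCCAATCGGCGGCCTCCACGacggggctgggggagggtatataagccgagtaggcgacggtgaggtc
ASNS: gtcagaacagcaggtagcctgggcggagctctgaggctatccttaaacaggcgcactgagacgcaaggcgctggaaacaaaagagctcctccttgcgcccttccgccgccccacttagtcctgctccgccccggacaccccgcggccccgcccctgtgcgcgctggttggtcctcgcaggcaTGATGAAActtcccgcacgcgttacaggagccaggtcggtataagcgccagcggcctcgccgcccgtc
The elements begin 66 and 68 bases before the start. The exact ER stress element was in 0.0806% of all promoter windows, 0.122% of those of tested genes, 0.260% of those of higher and 0% of those of lower genes, and TGATGNAA was in 3.19% of all windows, 1.53% of those of tested genes, 1.30% of those of higher genes and 1.58% of those of lower genes. The AP-1 motif TGACTCA was in 4.16% of all windows, 3.01% of those of tested genes, 2.02% of those of higher and 4.51% of those of lower genes. The E-box CACGTG, which MYC with MAX can bind, was in 6.49% of all windows, 8.67% of those of tested genes, 7.93% of those of higher and 10.3% of those of lower genes. The consensus NF-kB motif was in 0.183% of all windows, 0.184% of those of tested genes, 0.390% of those of higher and 0.244% of those of lower genes. All motifs were searched on both strands. Of 11438 windows of tested genes, only 14 held the exact ER stress element and 21 the NF-kB motif. Their shares among the 1538 higher and 1641 lower genes with a window thus rest on very few genes, and nothing is read from them.

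Of 17 tested heat shock chaperone genes 6 rose and 1 fell, with a median of 0.15. HSP90AA1 stood at 1360, 1440 and 1620 CPM in DMSO and 2700, 3460 and 3650 CPM in XMU-MP1 (1.15, SE 0.14, adjusted p = 0.00242 by edgeR), and HSPA8 rose from 3200 ± 743 to 5930 ± 80.3 CPM (0.89). In the 12-library fit 3 members rose. Of 25 tested lysosome and autophagy genes 5 rose (20%) and 1 fell (4%), against 12.1% and 13.1% of all tested genes. MAP1LC3B, which encodes the autophagosome protein LC3B, stood at 74.0, 80.1 and 72.2 CPM in DMSO and 190, 213 and 179 CPM in XMU-MP1 (1.36, SE 0.10, adjusted p = 0.000792 by edgeR). TFEB, the lysosomal master regulator, was the member that fell, from 6.56 ± 0.809 to 1.54 ± 0.237 CPM (-2.09). Without XMU-MP1 library b 2 members rose, and 3 without DMSO library a.

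Among the BCL2 family of survival and death genes 3 of 16 tested rose and 7 fell. BCL2L11, the death activator BIM, stood at 17.9, 21.2 and 17.4 CPM in DMSO and 73.7, 71.3 and 58.2 CPM in XMU-MP1, over 3 times the DMSO level in each library (1.85, SE 0.14, adjusted p = 0.000807 by edgeR). The survival gene MCL1 rose from 214 ± 23.4 to 357 ± 32.1 CPM (0.74), and the death gene BIK fell by 1.08. BOK, another gene of the family, fell by 1.11, a call lost in the 12-library fit. So members on both sides of the family rose, while BIK and BOK fell. Without DMSO library b or c 4 members fell.

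Transcription factors of squamous and mammary epithelium had 15 of 44 tested members lower, 4 higher and a median of -0.53. GRHL3, a factor of epidermal barrier formation, stood at 31.2, 25.1 and 15.4 CPM in DMSO and 2.56, 1.40 and 1.34 CPM in XMU-MP1 (-3.76, SE 0.39, adjusted p = 0.00157 by edgeR). BHLHE41, a repressor of the clock system, fell from 5.10, 6.87 and 6.82 CPM to 0.540, 0.678 and 1.01 CPM (-3.07). ID2, an inhibitor of basic helix-loop-helix factors, rose from 0.753 ± 0.0725 to 9.03 ± 2.91 CPM (3.58, SE 0.32, adjusted p = 0.00116 by edgeR). All 3 genes separated the groups in every library. Without DMSO library b, XMU-MP1 library b or XMU-MP1 library c 2 members rose.

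Developmental pathways had members called both ways, as did all tested genes (12.1% higher and 13.1% lower). Of 12 tested Notch genes 3 rose and 3 fell: NRARP, a feedback inhibitor of Notch, rose from 6.26, 7.93 and 6.94 CPM to 41.0, 50.0 and 28.9 CPM (2.50), MAML1, a Notch coactivator, rose by 1.01, and the target HES1 fell from 19.5 ± 1.81 to 6.88 ± 0.566 CPM (-1.50). Of 13 tested Wnt genes 1 rose and 4 fell, with a median of -1.02. DKK1, a secreted Wnt antagonist, fell from 31.6 ± 6.96 to 6.66 ± 2.30 CPM (-2.25), WNT7B, a ligand gene, fell by 1.43, and FZD7, a receptor gene, rose by 1.39. Leaving out XMU-MP1 library b left 2 Wnt genes lower. Of 22 tested TGF-beta genes 2 rose (9.09%) and 4 fell (18.2%), near those shares, and 1 fell in the 12-library fit. The receptor gene TGFBR2 fell from 285 ± 16.9 to 141 ± 27.2 CPM (-1.02). Of 20 tested SRF and MRTF cytoskeletal genes 7 fell and 1 rose, with FHL2, a LIM-domain cofactor, going from 79.7 ± 3.27 to 27.2 ± 0.750 CPM (-1.55) and CNN2, a calponin, from 505 ± 10.3 to 286 ± 22.7 CPM (-0.82). Without DMSO library c 3 of them fell, and 4 without DMSO b, XMU-MP1 a or XMU-MP1 b. Of 21 tested cholesterol synthesis genes 8 fell and 1 rose, among them MSMO1, a sterol demethylase, from 242 ± 55.2 to 115 ± 5.93 CPM (-1.07). With 1 library left out, 3 (without XMU-MP1 b) to 6 of the cholesterol genes fell, and in the 12-library fit 2 fell.

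Other lists had between 2 and 7 called members. Over all tested genes 12.1% were higher and 13.1% lower. Of 20 tested NRF2 targets 1 rose and 1 fell, 5% each and below those shares. Of 15 tested mesenchymal and matrix genes, with a median of -0.04, 2 fell and 0 rose by edgeR. That is 13.3% lower, near the share of all tested genes. The 2 that fell were PLAU, the urokinase gene, and MMP14, a membrane-bound matrix protease. PLAU stood at 315, 448 and 531 CPM in DMSO and 25.4, 37.2 and 69.6 CPM in XMU-MP1, 9.77-fold lower with no overlap (-3.29, SE 0.40, adjusted p = 0.00252 by edgeR), and MMP14 fell by 1.44. Of 19 tested hypoxia and glycolysis genes 4 rose (21.1%), among them KDM3A, a histone demethylase gene (1.25), and 3 fell (15.8%). Of these genes 2 rose without DMSO library b. Without XMU-MP1 library b or c 0 of them fell, and without DMSO c or XMU-MP1 a 1 fell. Of 8 tested genes of the aryl hydrocarbon receptor pathway 2 rose, ARNT (0.67), which encodes the partner of the receptor, and TIPARP (0.45), and neither was called without DMSO library c, without XMU-MP1 library b or in the 12-library fit. The list had 2 genes that fell, the cytochrome P450 genes CYP1A1, from 7.12 ± 1.03 to 0.642 ± 0.287 CPM (-3.47), and CYP1B1, from 38.9, 58.0 and 70.0 CPM to 2.47, 3.03 and 4.21 CPM (-4.10).

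**Figure D4:**
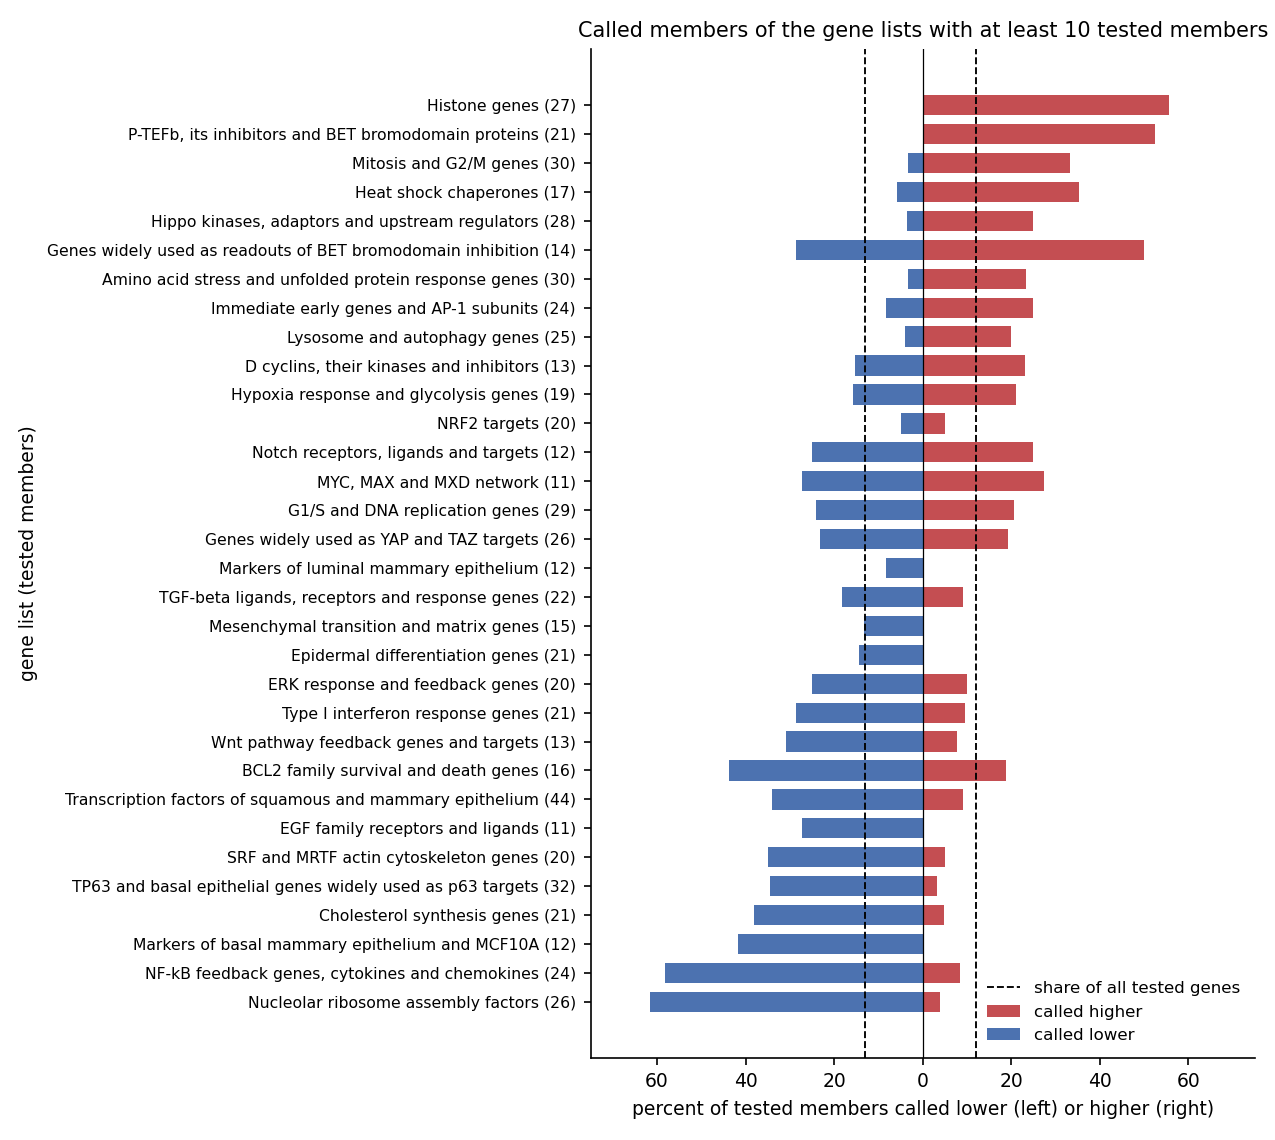
Percent of tested members called higher (red, right) and lower (blue, left) with XMU-MP1 in the gene lists with at least 10 tested members, all but 1 of them, ordered by the difference, with dashed lines at 12.1% and 13.1%, the shares of all 16081 tested genes. Histone genes (55.6% higher) stand at the top, and nucleolar ribosome assembly factors (61.5% lower) and NF-kB genes (58.3% lower) at the bottom.

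Outside the lists, the largest falls among genes with a mean FPKM of at least 5 were those of ZBED2, a zinc-finger gene (-4.32), MIG7 (-4.31), HCAR2, the niacin receptor (-4.19), PRR15L (-4.18) and PDGFB, a growth factor chain (-4.12). They were followed by CYP1B1, ADGRF1, an adhesion receptor (-4.06), and SH3TC1 (-3.90). PDGFB stood at 22.2, 24.7 and 29.0 CPM in DMSO and 0.607, 1.61 and 2.12 CPM in XMU-MP1. Only called genes without overlap between groups entered this ranking, so their lack of overlap is no result. HCAR2 has a near-identical neighbour, HCAR3, and MIG7 lies inside BCAR3 on the same strand (BCAR3 -0.59, not called), so their shares of reads are uncertain. Among the most abundant genes that rose at least 2-fold were TUBB4B, a beta-tubulin, at 947, 1300 and 1510 CPM in DMSO and 4530, 5660 and 5090 CPM in XMU-MP1 (2.02, SE 0.18, adjusted p = 0.00122 by edgeR), and PEG10, an imprinted gene derived from a retroelement, at 197, 260 and 239 CPM against 979, 2090 and 1660 CPM (2.77). Close paralogs or processed pseudogenes of TUBB4B, HSPA8, HSP90AA1, EIF1 and H3-3B may share their reads. ARL6IP1, a shaping protein of the endoplasmic reticulum, rose by 1.88 and EIF1, a translation initiation factor, by 1.35. Among abundant genes that fell were TNIP1, an inhibitor of NF-kB signalling, at 562, 748 and 884 CPM in DMSO and 241, 284 and 291 CPM in XMU-MP1 (-1.43), SLC43A3, a nucleobase transporter (-1.57), and NIBAN2 (-1.09).

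The cells carried the markers of their label. All 12 basal mammary and MCF10A markers had counts, and their summed FPKM was 5040 to 5740 in the DMSO libraries and 4290 to 5090 in the XMU-MP1 libraries. By edgeR 5 of 12 basal markers were lower and 0 higher, of which EGFR was the strongest, and 1 was lower in the fit of 12 libraries and 1 to 4 with 1 library left out (1 without DMSO b). The luminal markers summed to 3340 to 3520 FPKM in DMSO and 2410 to 3020 FPKM in XMU-MP1, mostly keratins that MCF10A also makes, with PGR and TFF1 at 0. Leukocyte markers summed to 30.4 to 42.1 FPKM in DMSO and 12.6 to 19.0 FPKM in XMU-MP1, nearly all from CD14 and CD68, with PTPRC and CD3E at 0. CD14 fell (-2.06). Fibroblast markers summed to 2.09 to 4.30 FPKM in DMSO and 2.99 to 5.14 FPKM in XMU-MP1, and endothelial markers to 0.453 to 0.931 FPKM and 0.207 to 0.327 FPKM, with ERG at 0. THY1, a fibroblast marker, was called higher but stayed at or below 2.51 CPM.

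Whether the response needs YAP and TAZ was asked of the other siRNA arm with a test of the difference between arms. YAP1 stood at 193 to 223 CPM in the DMSO libraries with control siRNA and 7.84 to 12.6 CPM in those with siRNA against YAP and TAZ, and WWTR1 at 24 to 38.2 CPM and 3.66 to 4.47 CPM, on the common scale of all 12 libraries. So both targeted transcripts were low in the arm labelled as knocked down. In that arm, by a fit of all 12 libraries over 18143 genes, XMU-MP1 gave 761 higher genes (4.19%) and 1437 lower genes (7.92%). With control siRNA the same fit gave 725 higher and 955 lower genes, and 557 genes were called in both arms in the same direction. The larger main counts for control siRNA came from a fit of that arm alone and are not matched to these. The response differed between the arms for 470 genes (2.59%), 156 with a positive and 314 with a negative difference of knockdown minus control. Library c of the knockdown arm with XMU-MP1 had 8243351 counts, 35.0% of them ribosomal RNA, and stood apart. Without it 1006 of 19211 genes (5.24%) differed, 398 positive and 608 negative. Ribosomal RNA took 1.86 to 8.35% of the counts in the other 5 libraries of that arm, more than the 1.02 to 2.52% with control siRNA, and its part in the differences was not tested.

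TP63, MYC, CCN2 and HEXIM1 had log2 fold changes of the same sign in both arms. TP63 changed by -1.58 after the knockdown (adjusted p = 0.0615 by edgeR) against -3.08 with control siRNA in the 12-library fit, and the difference was not called (1.5, adjusted p = 0.271 by edgeR). Without the library that stands apart these were -2.41 after the knockdown and a difference of 0.67 (adjusted p = 0.421 by edgeR). Knockdown libraries stood at 23.9, 10.8 and 19.7 CPM of TP63 in DMSO and 3.58, 3.25 and 12.4 CPM in XMU-MP1, and the highest treated library, above the lowest DMSO library, was library c, which stood apart. MYC fell by 2.98 after the knockdown (adjusted p = 2.13e-05 by edgeR). CCN2 rose by 3.53 (adjusted p = 0.0264 by edgeR), and by 2.56 without the library that stands apart. Its levels were 0.503 to 1.08 CPM in DMSO and 0.968, 6.94 and 18 CPM with XMU-MP1, well below the levels with control siRNA. The 18 CPM were those of library c, which stood apart, and library a, at 0.968 CPM, lay within the DMSO range. The differences between arms were not called for CCN2 (-1.26, adjusted p = 0.624 by edgeR, and -2.23, adjusted p = 0.252, without the library that stands apart), HEXIM1 (-0.40, adjusted p = 0.669 by edgeR) or ASNS (-1.14, adjusted p = 0.374 by edgeR), which does not show that the arms respond alike. For MYC the difference was -0.88, with an adjusted p of 0.0925 in 12 and 0.0302 in 11 libraries by edgeR. CCN1 rose by 4.26 after the knockdown (adjusted p = 0.00103 by edgeR), against 1.67 with control siRNA in the 12-library fit. Its knockdown levels were 1.08 to 2.54 CPM in DMSO and 11, 63 and 42.5 CPM with XMU-MP1. The CCN1 difference was positive, unlike that of CCN2, and was not called (2.60, adjusted p = 0.0843 by edgeR). Without the library that stands apart it was 2.54 (adjusted p = 0.0979 by edgeR).

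**Figure D5:**
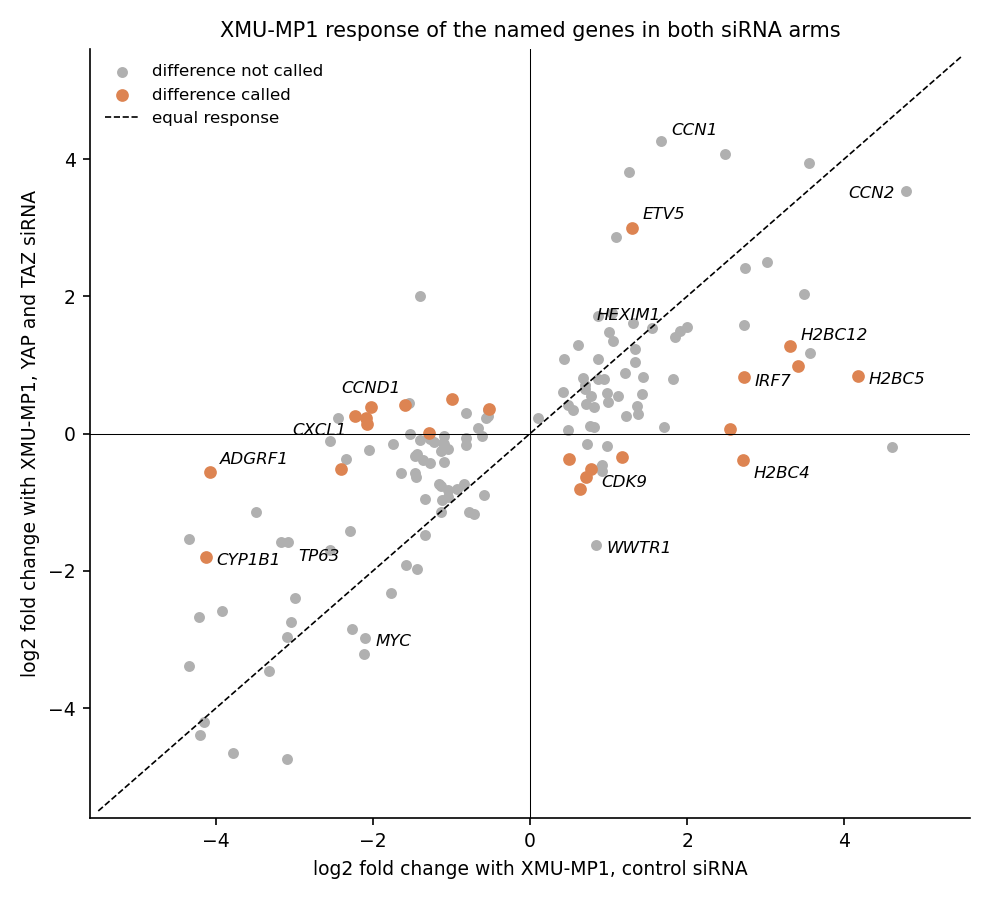
Log2 fold change with XMU-MP1 after siRNA against YAP and TAZ (vertical axis) against that with control siRNA (horizontal axis), both from the 12-library fit, for the genes named by rule with a value within 6 units (CDKN1C lies outside), orange where the difference between arms was called. H2BC4 (2.71 against -0.38) and CCND1 (-2.03 against 0.38) lie far from the dashed line of equal response, and TP63, MYC and CCN2 are grey.

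Histone genes were among those whose response differed. As a list they also rose after the knockdown, where 8 of 28 tested members were called higher and 0 lower (median 1.28). Over all genes 4.19% were higher there. Without the library that stands apart 6 members were higher, and with control siRNA 14 were in the 12-library fit. H2BC4 stood at 3.00 to 3.68 CPM in DMSO and 20.3 to 23.6 CPM in XMU-MP1 with control siRNA, but at 106, 207 and 166 CPM in DMSO and 147, 99.0 and 122 CPM in XMU-MP1 after the knockdown. The knockdown libraries were thus above all control-siRNA libraries with either treatment, and the change of H2BC4 with XMU-MP1 was not called there (-0.38, adjusted p = 0.307 by edgeR). The difference between arms was -3.09 (SE 0.33, adjusted p = 0.00389 by edgeR). H2BC5 stood at 40.7, 111 and 81.4 CPM in DMSO and 115, 156 and 146 CPM in XMU-MP1 after the knockdown, the lowest of them between the XMU-MP1 libraries with control siRNA, at 43.7, 71.5 and 38.3 CPM (difference -3.35). Its log2 fold change after the knockdown was 0.84, which was not called (adjusted p = 0.156 by edgeR). CDK9 stood at 80.2 to 93.0 CPM in DMSO and 56.7 to 62.8 CPM in XMU-MP1 after the knockdown, against a rise with control siRNA (difference -1.29). CCND1 stood at 94.9, 63.1 and 124 CPM in DMSO and 98.9, 102 and 167 CPM in XMU-MP1 after the knockdown, with overlap, where it fell with control siRNA (difference 2.41). CXCL1 was already low in the knockdown DMSO libraries, at 12.5 to 35.6 CPM against 96.2 to 129 CPM with control siRNA, and stood at 28.8 to 31.2 CPM with XMU-MP1 (difference 2.48).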

How the data were processed

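Per the labels' protocols, libraries were stranded, selected for poly(A) and read from both ends. The submitters' processing notes name cutadapt, FastQC, HISAT2, StringTie, edgeR and the build GRCh38.p13, and their settings and the way reads were counted are not given in the sources used here. Per the file headers, the deposited table gives unscaled whole-number counts and FPKM for 46931 genes in 12 libraries, in 24 columns. The authors' FPKM are fragments scaled to transcript length and depth, and a count of 0 appears as 1e-04. All 24 columns could be matched to samples by their names.

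The main test was edgeR's quasi-likelihood F test (edgeR 4.0.16 in R 4.3.3), with filterByExpr, which kept 16081 genes, and TMM scaling, on 2 means in the 6 control-siRNA libraries (4 residual degrees of freedom, common dispersion 0.120, 3.22 prior degrees of freedom). Tests are two-sided. Each SE equals the absolute log2 fold change over the root of F. The interaction was fitted on all 12 libraries with 4 group means. The 6-library fit was chosen because a library of the knockdown arm stands apart. Members, lists and fits were chosen with earlier results of these data known. A total of 3 counts per library, the limit that a count of 0 allows, corresponds to 0.0425 to 0.0674 CPM and cover counting error only. TMM rests on most genes being unchanged, and no spike-in was used here.

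Named by rule were TP63, the kinase genes (STK3, STK4, LATS1, LATS2), the coactivator genes (YAP1, WWTR1) and CCN1 with CCN2. The rule added the 8 largest rises and 8 largest falls among called genes without overlap whose higher group averaged 5 FPKM or more. It also added the 8 most abundant rising and 8 most abundant falling genes changed at least 2-fold without overlap, and up to 4 called members of each of 38 gene lists by adjusted p. Lists were given no test of their own. Promoters were the 250 bases before the start in RefSeq's table on GRCh38.p14, matched by symbol for 11438 of the tested genes. CCN1 has no entry in that table. Alternatives were the fits of 12 and 11 libraries, other filters and scalings, DESeq2 1.42.0, limma 3.58.1 (voom, and trend on log2(FPKM + 1) or log2(FPKM + 0.1)), a replicate block and leaving out each library. The procedure was also tested on simulated data of the 6 libraries. It called 25% of 100 genes changed 2-fold and 63% of 100 genes changed 4-fold, and 7 unchanged genes. A gene that was not called may therefore still have changed. Figures were drawn with matplotlib 3.10.9. A few genes and 1 list are not reported here.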

Additional observations from a re-analysis of the deposited data

Results flagged for a closer look

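For 23 of the named genes the XMU-MP1 response differed between the siRNA arms by the interaction test over 18143 genes (edgeR, adjusted p under 0.05), where 2.59% of genes did. Most named genes were chosen for their call with control siRNA, which is part of the difference tested, so nothing is read from their count or from the sign of the differences. Values are log2 differences, the response after siRNA against YAP and TAZ minus that with control siRNA. All 23 were also called without the library that stands apart.

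Histone genes had negative differences: H2BC5 -3.35, H2BC4 -3.09, H2AC6 -2.48, H4C15 -2.42 and H2BC12 -2.03. H2BC12 rose in both arms (3.31 with control siRNA and 1.27 after the knockdown), whereas H2AC6 stood at 2.55 and 0.07. H4C15 lost its call with a replicate block.

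Other genes that rose with control siRNA also had negative differences. They were IRF7 (-1.91), the co-chaperone gene DNAJB9 (-1.51), ARNT (-1.45), which encodes the partner of the aryl hydrocarbon receptor, CDKN1B (-1.33), CDK9 (-1.29) and GCLC (-0.86), an enzyme of glutathione synthesis. GCLC lost its call with a replicate block and with DESeq2 size factors.

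Genes that fell with control siRNA had positive differences. These were ADGRF1 (3.52), CXCL1 (2.48), CCND1 (2.41), CYP1B1 (2.33), FOSL1 (2.31), CD14 (2.23), SLC43A3 (1.99), FAT2 (1.90), DKC1 (1.49), MCM3 (1.30) and CALD1 (0.89), an actin-binding protein gene. CYP1B1 fell in both arms, by 4.13 with control siRNA and by 1.80 after the knockdown.

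ETV5 rose in both arms, by 1.30 with control siRNA and by 3.00 after the knockdown (difference 1.70).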

How the results depend on the processing

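The 6-library fit called 1943 higher and 2101 lower genes, 1810 of them changed at least 2-fold. All 12 libraries in the fit gave 725, 955 and 1163, and 11 libraries gave 1134 higher genes. Limma on log2(FPKM + 1) called 787 genes at least 2-fold changed, where the pseudocount shrinks low genes. Leaving out a library gave 1081 (without XMU-MP1 b) to 1723 higher genes, 1220 (without DMSO b) to 1837 lower genes and 1366 to 1771 changed at least 2-fold. Higher genes made up 48.0% of the calls, but 35.8% (1411 higher, 2528 lower) with library totals only, 35.5% (1499 and 2719) on log2(FPKM + 1) and 35.8% (1527 and 2738) on log2(FPKM + 0.1). DESeq2 called 2412 and 2703 genes and limma voom 2068 and 2260. The interaction, 156 positive and 314 negative genes, gave 398 and 608 without the library that stands apart. Of 150 named genes, 148 were called, 97 kept their side of the threshold and their direction under all 17 other settings, 53 lost a call in at least 1 setting and 0 reversed.

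The letters a, b and c did not pair the libraries by the rule used, since deviations from the group means correlated at 0.18, 0.08 and 0.12 and only 2 of 3 were over 0.1, although every library, 6 of 6, was closest to its own letter, a hint from the data and not the design. A replicate block gave 2111 higher and 2324 lower genes and 161 positive and 310 negative interaction genes.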

Other observations

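Of 118 tested small nucleolar RNA genes 10 (8.47%) were higher by edgeR, below the 12.1% over all genes tested, with a median log2 fold change of 0.36, in libraries selected for poly(A). Among protein-coding genes the median log2 fold change went from 0.13 in those spanning up to 3 kb (79 of 566 higher, 61 lower) to -0.09 in those over 100 kb (297 of 2269 higher, 405 lower), a description over genes that also differ in abundance (median 11.5 and 24.2 CPM).

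Some genes outside the naming rule, picked after their values were seen, differed widely between the siRNA arms. KRT80, an epithelial keratin gene, stood at 122, 154 and 163 CPM in DMSO and 10.6, 10.6 and 13.2 CPM in XMU-MP1 with control siRNA, a 12.8-fold fall, and its log2 fold change was 3.70 higher after the knockdown (adjusted p = 0.00389 by edgeR). DUSP2, a phosphatase of MAP kinases at 1.49 to 2.09 CPM in DMSO, had a log2 fold change of -2.02 with control siRNA and 4.70 after the knockdown (difference 6.73, SE 0.53, adjusted p = 0.000578 by edgeR). For MTFR2 the log2 fold change was 0.18 with control siRNA and 3.57 after the knockdown (difference 3.40, adjusted p = 0.00389 by edgeR).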
